A study of Mus musculus with 40 samples.

Results

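The 10 genes described here code for RANKL, its receptor and its decoy, and for cytokines and a cytokine receptor that act on osteoclasts, the cells that resorb bone. They were taken by gene symbol from the 17914 genes on the array, where 13 of 25697 probes carried one of them: Tnfsf11, Tnfrsf11b, Tnfrsf11a, Csf1, Csf1r, Il6, Il1b, Tnf, Il1rn and Fasl. Csf1r had 2 probes, Il1rn had 3 and the other genes had 1 each. RNA came from C57BL/6 female mice aged 15 weeks that were either wild type (WT) or carried a deletion of activation function 1 of estrogen receptor alpha (AF-1-deleted). All mice, the controls included, were ovariectomized, and 1 week later they received 17β-estradiol (E2, 115 µg/kg) under the skin or olive oil vehicle. RNA was taken 18 h after that. Vertebral bodies L5 and L6 gave the RNA called trabecular and flushed long-bone shafts the RNA called cortical. There were thus 8 groups, each of 5 arrays, and 40 arrays in all. No group was left with its ovaries, so the E2 effect is that of a single dose in ovariectomized mice. The labels leave unsaid whether replicates are separate animals and whether a mouse gave both bones, so a p-value here reflects only how these samples vary, which may be technical.

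Osteoclasts form from cells of the monocyte lineage that carry the M-CSF receptor (Csf1r) and RANK (Tnfrsf11a). M-CSF (Csf1) keeps these precursors alive, and RANKL (Tnfsf11), made by osteocytes, osteoblasts, stromal cells and lymphocytes, binds RANK and drives them to fuse and resorb. Osteoprotegerin (OPG, Tnfrsf11b) is a secreted decoy that binds RANKL and keeps it from RANK, so the balance of RANKL to OPG sets much of the resorption rate. Interleukin 1 beta (Il1b), TNF (Tnf) and interleukin 6 (Il6) promote resorption, the interleukin 1 receptor antagonist (Il1rn) blocks interleukin 1, and Fas ligand (Fasl) can start osteoclast death. Estrogen is known to restrain bone resorption in the mouse, and these genes are among the mediators proposed for it.

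Because the study turns on an estrogen receptor, the promoters of 4 of the genes whose values are described below are shown first, as the 250 bases before the RefSeq start on build GRCm38.p6, 5′ to 3′ on the strand of the gene. Capitals mark a match, on either strand, to a motif named after the sequences.
Tnfsf11, chr14:78308044-78308293, minus strand: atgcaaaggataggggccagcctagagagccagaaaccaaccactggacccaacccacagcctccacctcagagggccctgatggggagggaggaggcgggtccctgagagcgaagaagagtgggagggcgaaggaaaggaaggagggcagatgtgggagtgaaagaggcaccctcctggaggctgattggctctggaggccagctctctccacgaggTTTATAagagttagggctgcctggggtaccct
Csf1, chr3:107760470-107760719, minus strand: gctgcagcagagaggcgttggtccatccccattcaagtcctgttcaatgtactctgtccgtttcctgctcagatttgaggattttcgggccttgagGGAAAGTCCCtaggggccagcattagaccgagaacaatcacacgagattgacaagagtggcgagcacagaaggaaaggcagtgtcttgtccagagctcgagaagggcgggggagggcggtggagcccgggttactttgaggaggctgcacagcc
Il1b, chr2:129371140-129371389, minus strand: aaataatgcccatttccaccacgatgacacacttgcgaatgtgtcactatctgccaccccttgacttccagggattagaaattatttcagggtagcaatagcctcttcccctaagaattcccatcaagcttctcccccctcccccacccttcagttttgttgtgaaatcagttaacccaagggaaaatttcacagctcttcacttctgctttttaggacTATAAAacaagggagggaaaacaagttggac
Il1rn, chr2:24336610-24336859, plus strand: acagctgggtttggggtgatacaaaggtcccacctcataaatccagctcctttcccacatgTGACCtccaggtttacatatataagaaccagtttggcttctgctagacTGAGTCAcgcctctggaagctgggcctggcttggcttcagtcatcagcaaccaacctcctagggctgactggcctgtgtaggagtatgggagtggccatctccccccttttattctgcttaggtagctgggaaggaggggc
Of the 10 genes, 8 had a RefSeq promoter entry. Tnfrsf11b and Csf1r were not matched. The full estrogen response element, GGTCA and TGACC with 3 bases of any kind between them, matched 0 of the members' windows and 0.0639% of the 32851 promoter windows of the table. Its half-site GGTCA, which is a part of the full element, matched 35.2% of all windows and, among the members, that of Il1rn, 189 to 185 bases before the start. The AP-1 site TGANTCA (6.75% of windows) matched in Il1rn and Il6. The NF-kB site, read as GGGA, any base and TTTCC, was in 0.356% of windows and matched in Csf1, 154 to 145 bases before the start, and in Il6, 44 to 35 bases before it. The TATA box TATAAA (12.4% of windows) matched in Il1b, Tnf and, on the opposite strand, Tnfsf11, and the Runx site TGTGGT (14% of windows) matched in none of them. For Il1rn these matches belong to the first of its 3 listed starts. These are matches of letters in short windows and were not measured as binding sites.

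A probe counts as detected on an array when its detection p, taken from the negative control beads, is under 0.01. OPG, RANK, Csf1r, Il1b and Il1rn were detected on all 40 arrays and Csf1 on 38. RANKL was detected on 29 arrays, 19 of 20 cortical and 10 of 20 trabecular. Tnf was detected on 17 arrays, 11 trabecular and 6 cortical. Il6 and Fasl were detected on 0 of 40 arrays, and their probes gave raw intensities of 138 to 259 and 163 to 281, so neither was tested. The remaining 8 genes were tested. For Il1rn, 1 probe carried the signal and the other 2 were detected on 0 arrays. For Csf1r the brighter probe was used, and the dimmer one was detected on 36 arrays.

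In trabecular bone the 4 arrays of BeadChip 1, the slide that carries replicate 1, had 8052 to 9218 detected probes, against 10357 to 11203 on the other 16. In cortical bone the ranges were 9880 to 11435 and 10324 to 11691. The brighter of 2 Esr1 probes, for the gene of estrogen receptor alpha, was detected on 37 arrays of both genotypes, and AF-1-deleted minus WT differences of Esr1 lay between −0.08 and 0.14 on the log2 scale. The sources used here do not place that probe relative to the deletion, so it does not check the genotype labels. The osteoblast list (8 genes on the array) was detected on all arrays of both bones, and so was the neutrophil list (7 genes). The osteocyte product Sost was detected on no trabecular array, and Fgf23 on no array of either bone.

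**Figure D1:**
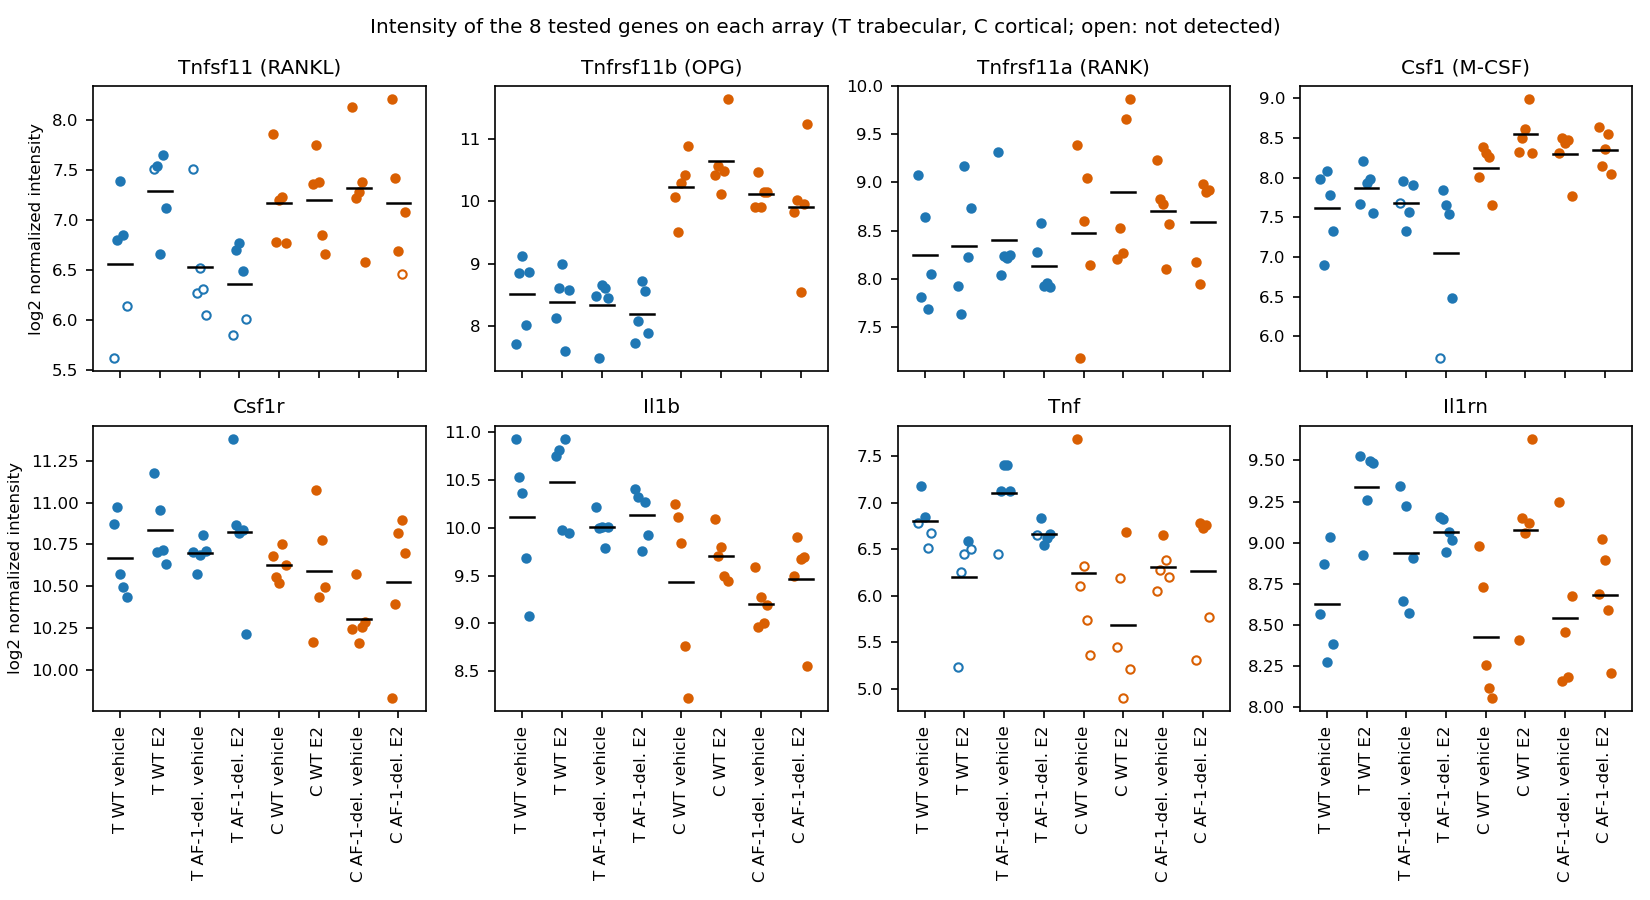
Log2 normalized intensity (vertical axis, 1 panel per gene) of the 8 tested genes on each of 40 arrays, by group. Points are arrays, open where the probe was not detected, and lines are group means of 5 arrays. OPG lies between 7.49 and 9.13 on the trabecular arrays and between 8.55 and 11.63 on the cortical arrays.

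OPG, the decoy receptor, was the member that differed most clearly between the bones, and it was lower in trabecular bone in all 4 pairs of groups. In vehicle-treated WT mice its log2 intensities were 7.72, 8.85, 9.13, 8.02 and 8.87 on the trabecular arrays, in the order of BeadChips 1 to 5. On the cortical arrays they were 10.06, 9.50, 10.29, 10.41 and 10.89. The 2 groups did not overlap, and the trabecular mean of 8.52 ± 0.61 (SD, n = 5) stood against 10.23 ± 0.51 (SD, n = 5). The log2 difference was −1.71 ± 0.35 (SE), a 3.28-fold lower level, with adjusted p = 0.00046 by limma.

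In E2-treated WT mice OPG read 8.14, 8.62, 8.99, 7.60 and 8.58 in trabecular and 10.41, 10.56, 10.11, 10.48 and 11.63 in cortical bone. Again no trabecular array reached the lowest cortical one, and the log2 difference was −2.25 ± 0.35 (SE, adjusted p = 2.26e-05). In AF-1-deleted mice the difference was −1.78 ± 0.35 (SE, adjusted p = 0.000284) with vehicle and −1.71 ± 0.35 (SE, adjusted p = 0.000595) with E2. With vehicle these groups did not overlap. With E2 they did: the cortical array of BeadChip 3, at 8.55, lay below the highest trabecular one at 8.72. By mean level the order was cortical WT with E2 (10.64), cortical WT with vehicle (10.23), cortical AF-1-deleted with vehicle (10.11) and with E2 (9.91), then trabecular WT with vehicle (8.52) and with E2 (8.39), and trabecular AF-1-deleted with vehicle (8.34) and with E2 (8.20). Neighbours in this order within a bone differed by less than the SD of at least 1 of the 2 groups, and the only step beyond it lay between the bones. The call for OPG held under each alternative run in each of the 4 comparisons, with log2 differences between −1.31 and −2.54.

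Of the 8 members tested, 1 was called (adjusted p under 0.05) between the bones of WT mice with vehicle, where 20.6% of all 9451 genes tested were called. It was 1 with E2 (background 19.4%), 1 in AF-1-deleted mice with vehicle (22.3%) and 2 with E2 (22.9%). All were lower in trabecular bone, the direction of 11.6%, 11.4%, 12.7% and 12% of all genes in these comparisons, and 0 members were called higher, as 9.01%, 7.99%, 9.5% and 11% of all genes were. The members' shares are thus near or below those of all genes. Groups that did not overlap were seen for OPG in 3 of the comparisons, for Csf1 with E2 in both genotypes and for Il1b in AF-1-deleted mice with vehicle, where 14.4%, 12.5%, 16.9% and 16.4% of all genes had none in the order above.

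**Figure D2:**
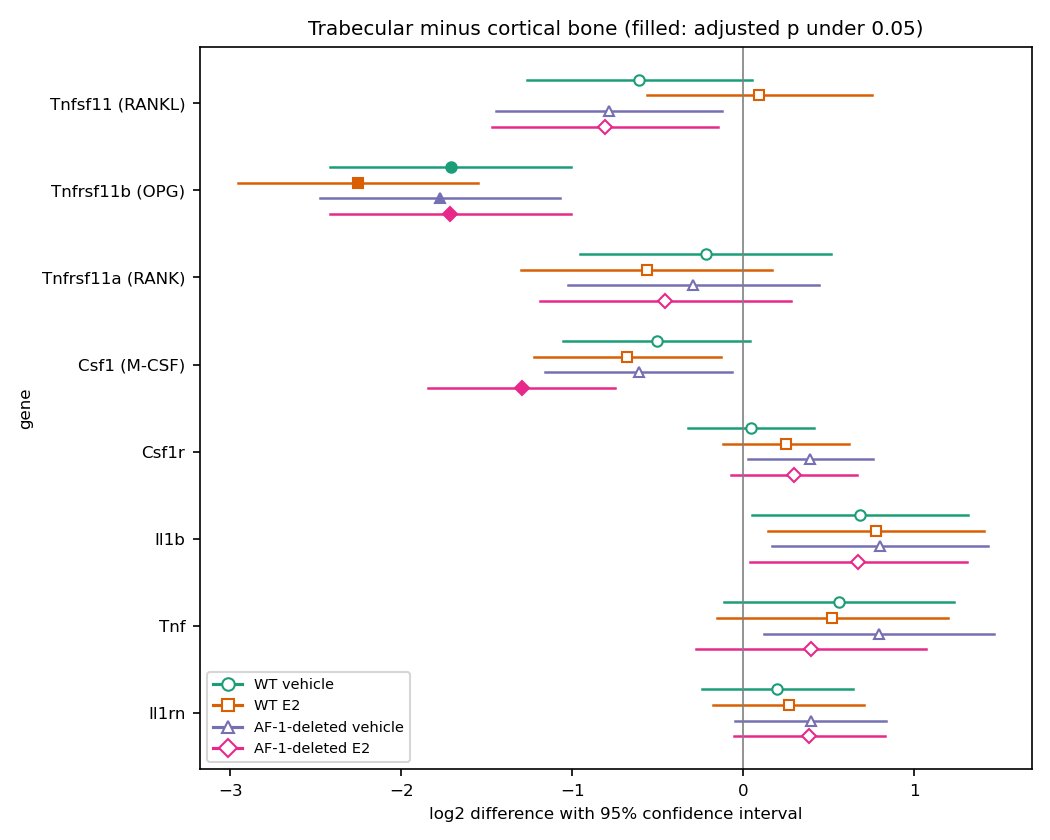
Log2 difference, trabecular minus cortical (horizontal axis, with the 95% confidence interval of the limma fit), for the 8 tested genes in the 4 pairs of groups. Filled symbols have an adjusted p under 0.05, which are the 4 of OPG and that of Csf1 in AF-1-deleted mice with E2 at −1.30. The symbols of Il1b lie between 0.67 and 0.80.

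Csf1, the growth factor of osteoclast precursors, was lower in trabecular bone of AF-1-deleted mice given E2. It read 5.72, 7.85, 7.66, 7.54 and 6.48 there against 8.64, 8.15, 8.36, 8.55 and 8.04 in cortical bone. The groups did not overlap, and the array of BeadChip 1, at 5.72, was the only one of the 5 trabecular arrays on which the probe was not detected. The log2 difference was −1.30 ± 0.27 (SE, adjusted p = 0.000787), and without BeadChip 1 it was −0.89 (adjusted p = 0.0196). Without background correction it was −0.66 (adjusted p = 0.000707). In the other 3 pairs Csf1 had log2 differences of −0.51 ± 0.27, −0.68 ± 0.27 and −0.61 ± 0.27 (SE) for WT with vehicle, WT with E2 and AF-1-deleted with vehicle (adjusted p = 0.182, 0.0704 and 0.0988). With the BeadChip as a block, that of WT with E2 passed (adjusted p = 0.0453). It passed as well without background correction (−0.43, 0.0250), with the authors' values (−0.43, 0.0251) and with only the groups compared (−0.68, 0.0245). The other 19 of its 23 alternatives brought no call. In AF-1-deleted mice with vehicle Csf1 passed with only the groups compared (−0.61, 0.0300), and the other 22 of 23 alternatives brought no call.

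RANKL was near the detection limit in trabecular bone. With vehicle it was detected on 3 of 5 WT and 0 of 5 AF-1-deleted trabecular arrays, and on 5 of 5 cortical arrays of each genotype. In AF-1-deleted mice with vehicle its values were 7.51, 6.27, 6.52, 6.30 and 6.05 in trabecular bone, none of them detected, and 8.13, 7.22, 7.28, 7.38 and 6.58 in cortical bone. The value of 7.51 came from BeadChip 1 and overlapped the cortical range. With values under the detection limit raised to it, the mean of RANKL was at least 1.36-fold higher in cortical bone there. That bound carries no sampling error, and the fitted difference of −0.79 ± 0.33 (SE) was not called (adjusted p = 0.0766). The other differences were −0.61 (WT with vehicle, adjusted p = 0.185), 0.09 (WT with E2, 0.875) and −0.81 (AF-1-deleted with E2, 0.0683). With the BeadChip as a block the last passed (adjusted p = 0.0469). Leaving out BeadChips or single arrays moved these values both ways. Without BeadChip 1 the difference was −0.20 (adjusted p = 0.611) in WT mice with vehicle and −0.42 (0.287) in AF-1-deleted mice with E2, and without the trabecular array of BeadChip 1 it was −0.37 (0.459) in WT mice with vehicle. Without background correction the differences of WT with vehicle, AF-1-deleted with vehicle and AF-1-deleted with E2 were −0.24, −0.33 and −0.34. Other cases passed: in AF-1-deleted mice with vehicle without BeadChip 1 (−0.83, adjusted p = 0.0209), without the trabecular array of BeadChip 1 (−1.03, 0.0259) or the cortical array of BeadChip 5 (−0.97, 0.0350), and with E2 without BeadChip 3 (−1.03, 0.0440) or the cortical array of BeadChip 3 (−0.93, 0.0443) or 4 (−0.99, 0.0311).

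Il1b, a cytokine that promotes resorption, had higher means in trabecular bone in all 4 pairs, and did so on 5 of 5 BeadChips in each. In AF-1-deleted mice with vehicle it read 10.21, 10.003, 10.01, 9.78 and 10.01 in trabecular and 9.59, 8.96, 9.27, 9.004 and 9.20 in cortical bone, with no overlap. The log2 difference there was 0.80 ± 0.31 (SE, adjusted p = 0.0601). It was 0.68 ± 0.31 for WT with vehicle, 0.78 ± 0.31 for WT with E2 and 0.67 ± 0.31 (SE) for AF-1-deleted mice with E2, with adjusted p = 0.116, 0.0728 and 0.114. None of these passed, but with the BeadChip as a block all 4 did, with adjusted p of 0.0399 for WT with vehicle, 0.0214 for WT with E2, 0.0158 for AF-1-deleted with vehicle and 0.0393 for AF-1-deleted with E2. WT with E2 also passed without background correction (adjusted p = 0.0463), with the authors' values (0.0463) and with only the groups compared (0.0360). AF-1-deleted with vehicle also passed with only the groups compared (0.00269) and with probes detected on all arrays (0.0477). In each of these comparisons 19 of 24 alternatives brought no call. In WT mice with vehicle, arrays of both bones were high on BeadChip 1 (10.93 and 10.25) and low on BeadChip 5 (9.07 and 8.22), so the 2 groups overlapped while each BeadChip kept the direction. Without the trabecular array of BeadChip 5 or the cortical one of BeadChip 1 the comparison passed (0.94, adjusted p = 0.0302, and 0.88, 0.0446), while without the cortical one of BeadChip 5 it was 0.38 (0.419). So did WT with E2 without BeadChip 5 (0.84, 0.0342), and AF-1-deleted mice with vehicle without BeadChip 5 (0.80, 0.0373) or the cortical array of BeadChip 1 (0.90, 0.0467). In AF-1-deleted mice with E2 the difference was 0.44 (0.366) without the cortical array of BeadChip 5.

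For Tnf, another cytokine that promotes resorption, the differences were 0.56, 0.52, 0.79 and 0.39, in the order WT with vehicle, WT with E2, AF-1-deleted with vehicle and with E2 (adjusted p = 0.238, 0.277, 0.0804 and 0.42). It was detected on at most 4 of 5 arrays in any group. On the cortical array of BeadChip 1 in WT mice with vehicle Tnf read 7.69, against 5.36 to 6.32 on the other 4. Without that array the difference was 0.92 (adjusted p = 0.0296), without BeadChip 1 it was 0.93 (0.0132), and in AF-1-deleted mice with vehicle without BeadChip 1 it was 0.89 (0.0161). In WT mice with vehicle it was 0.37 (0.556) without BeadChip 5, 0.34 (0.541) without the cortical array of BeadChip 5 and 0.18 without background correction. Il1rn, the antagonist of interleukin 1, had differences of 0.20 to 0.39 (adjusted p of 0.192 to 0.554). Csf1r, the receptor of M-CSF, had differences of 0.04 to 0.39 (adjusted p of 0.116 to 0.898), and RANK had −0.57 to −0.22 (0.278 to 0.717). For these 3 receptor and antagonist genes no comparison of the bones passed in the main fit, and the 95% intervals of RANK reached from −1.30 to 0.51. With only the groups compared, Csf1r passed by limma in AF-1-deleted mice with vehicle (0.39, adjusted p = 0.0399).

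Markers of several cell types moved with the bone as well. The summed level of the osteocyte list (5 genes on the array, 4 tested) ranged from 9.62 to 10.91 on the log2 scale in trabecular and from 11.90 to 13.49 in cortical bone, and 4 of 4 were called lower in trabecular bone in each of the 4 comparisons. Osteoblast markers ranged from 15.86 to 16.59 and from 16.61 to 17.00, with 7, 4, 5 and 4 of 8 called lower and 0 higher. Skeletal muscle markers ranged from 14.04 to 15.88 and from 15.67 to 17.74, with 9 of 9 lower in each, and the fibroblast and periosteum list from 8.94 to 10.11 and from 9.77 to 13.09. Osteoclast markers overlapped (14.60 to 15.28 and 14.54 to 15.48), with 0 of 5 tested called in either direction. Monocyte and macrophage markers lay at 11.94 to 12.85 and 11.51 to 12.64. T and NK cell markers lay at 10.42 to 11.35 and 9.52 to 10.86, with 3, 1, 2 and 4 of 4 tested called higher in trabecular bone. Erythroid markers had 3, 3, 4 and 3 of 7 called higher, B lineage markers 1, 2, 1 and 2 of 5, and cartilage markers 1, 2, 1 and 2 of 4. Marrow stromal markers overlapped (14.21 to 14.96 and 14.02 to 15.04), with 2, 1, 1 and 0 of 4 tested called lower and 0 higher. Neutrophil markers overlapped too (17.34 to 17.60 and 17.12 to 17.59), with 0 of 7 called in either direction. The part of these cell types in the differences of OPG, Csf1, RANKL and Il1b was not tested. In bulk RNA of this kind, fewer cells of a type and less RNA per cell cannot be told apart.

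Since OPG binds RANKL, the log2 value of RANKL minus that of OPG was followed on each array. Only its differences between groups carry meaning, because the 2 probes need not respond alike, and RANKL was not detected on 11 arrays. It was higher in trabecular than in cortical bone by 1.10 in WT with vehicle and by 2.35 in WT with E2. In AF-1-deleted mice it was higher by 0.99 with vehicle and by 0.91 with E2. It was higher on 5, 5, 5 and 3 of 5 BeadChips, in that order. Over all arrays the bones differed by 1.34, against an SD of 0.76 within groups. OPG had a mean of 8.36 on the trabecular and 10.22 on the cortical arrays. RANKL had 6.69 and 7.21, so over all arrays the higher value in trabecular bone goes with lower OPG and not with higher RANKL. RANKL was detected on 10 of 20 trabecular and 19 of 20 cortical arrays, so its trabecular mean includes many values below detection. The RANKL minus OPG values are a description of the 2 genes together and have no test of their own.

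**Figure D3:**
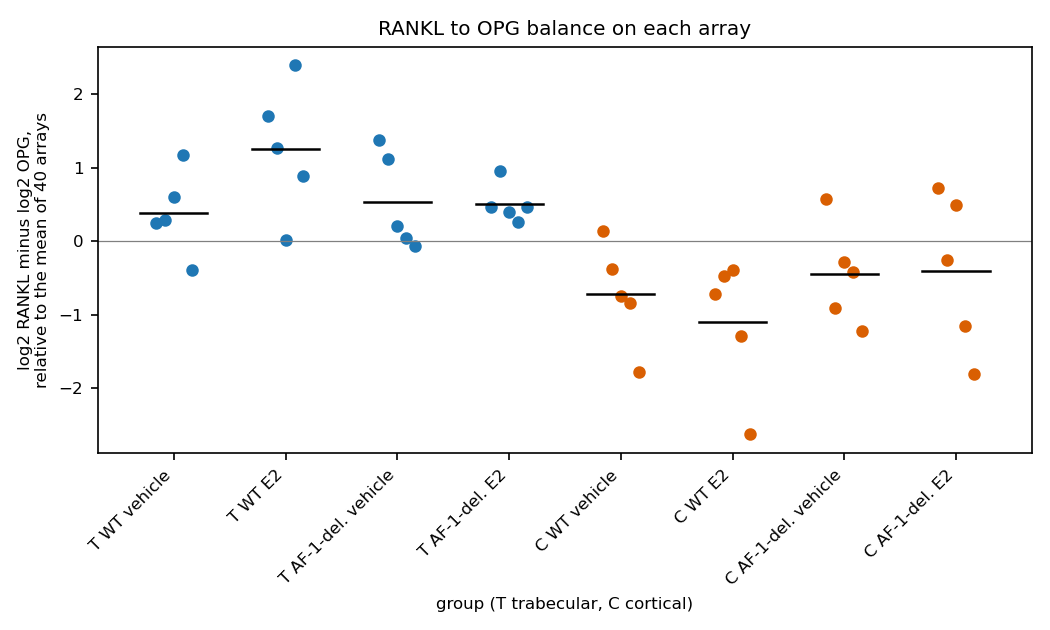
Log2 intensity of RANKL minus that of OPG on each array, relative to the mean of 40 arrays (vertical axis), by group. Points are arrays and lines are group means of 5 arrays. Trabecular groups lie above cortical groups, by 0.91 to 2.35 between paired group means, and single arrays of the 2 bones overlap.

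Genes around the members were read from 4 lists. Of the RANK signalling list (29 genes on the array, 28 tested), 2 were higher and 2 lower in trabecular bone of WT mice with vehicle, 1 and 3 with E2, 5 and 1 in AF-1-deleted mice with vehicle, and 3 and 3 with E2. Its medians lay at 0.18, 0.23, 0.21 and 0.09, against 0.06, 0.05, 0.06 and 0.06 for all genes tested. Syk, the kinase through which the osteoclast costimulatory receptors signal, was higher in trabecular bone in all 4 comparisons. In WT mice with vehicle it was detected on 0 of 5 cortical arrays and was at least 1.84-fold higher in trabecular bone. In the other pairs its log2 differences were 1.02 ± 0.25, 1.16 ± 0.25 and 1.05 ± 0.25 (SE), in the same order. Traf2, an adaptor of TNF receptors, was lower in 3 of the 4. In WT mice it was detected on 0 trabecular arrays, and in those with E2 it was at least 1.301-fold higher in cortical bone. Jun, a component of AP-1, was lower in all pairs but WT with vehicle, with log2 differences of −0.96, −0.92 and −1.07. The osteoclast effector list (16 genes on the array, 12 tested) had 0, 1, 1 and 0 called, namely Cst7, a cysteine protease inhibitor (0.78 ± 0.28 SE, WT with E2), and Car2, the carbonic anhydrase that supplies protons for resorption (0.77 ± 0.26 SE, AF-1-deleted with vehicle), both higher.

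Among cytokine receptors and decoys (18 genes on the array, 15 tested), 2 were higher and 2 lower in each WT comparison, 1 and 3 in AF-1-deleted mice with vehicle, and 3 and 2 with E2. Il11ra1, the receptor of interleukin 11, was lower in trabecular bone in all 4, by −0.89 ± 0.29 to −1.20 ± 0.29 (SE). Csf3r, the G-CSF receptor, was higher in 3, by 1.01, 1.01 and 1.13. Among other cytokines acting on osteoclasts (31 genes on the array, 17 tested), 2 and 2, 3 and 2, 2 and 2, and 4 and 2 were called. Osm, which codes for oncostatin M and can induce RANKL in osteoblasts, was higher in all 4, by 1.25 ± 0.27, 0.98 ± 0.27, 0.95 ± 0.27 and 0.94 ± 0.27 (SE). Wnt16, which restrains osteoclast formation in mouse cortical bone, was lower in all 4. It was detected on 0 trabecular arrays, and the cortical level was at least 1.86-fold, 2.25-fold, 1.29-fold and 1.86-fold higher (adjusted p = 0.000296, 0.000311, 0.0127 and 0.00117). Wnt5a, which enhances RANK expression, was lower in all 4 as well. It was detected on 0 trabecular arrays of WT mice, and the cortical level was at least 1.59-fold higher with vehicle and 1.497-fold higher with E2. The bones differed in marker levels, as given above, and their part in these differences was not tested.

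The central question of the study was what E2 does in bone with and without AF-1. Of the 8 members tested, 0 were called with E2 in any of the 4 combinations of bone and genotype by limma. The background of genes called was 0.207% in WT trabecular, 0.0115% in AF-1-deleted trabecular, 0.143% in WT cortical and 0% in AF-1-deleted cortical bone. In WT cortical bone 0.132% of genes were called higher and 0.011% lower. At an unadjusted p under 0.05 there were 3 of 8 members in WT trabecular bone (Il1rn, RANKL and Tnf), where 6.78% of all genes had one, and 2 in WT cortical bone (Il1rn and Csf1, 3.13%). There were 0 in AF-1-deleted bone of either kind (4.16% and 3.50%). For all 8 members the vehicle and E2 groups overlapped in WT trabecular bone, where 1.53% of all genes had groups that did not.

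**Figure D4:**
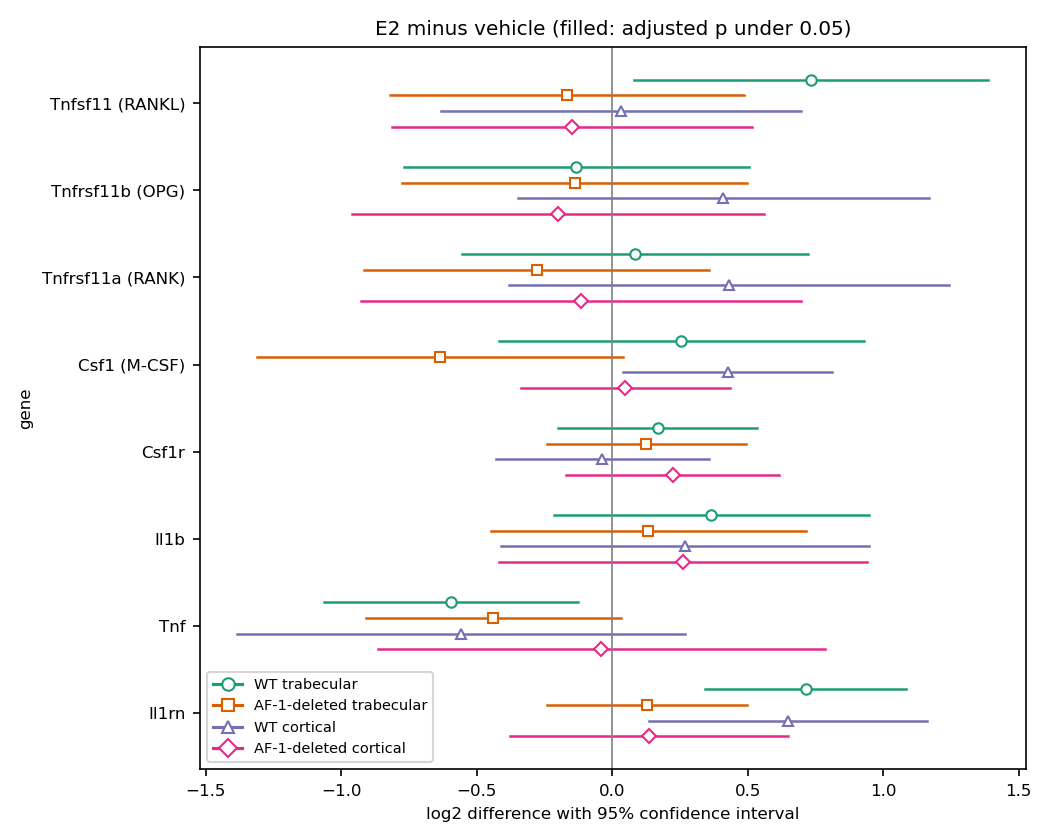
Log2 difference, E2 minus vehicle (horizontal axis, with the 95% confidence interval of the limma fit), for the 8 tested genes in 4 combinations of bone and genotype. No symbol is filled, since none had an adjusted p under 0.05. Il1rn lies at 0.71 and 0.65 in WT bone and at 0.13 and 0.14 in AF-1-deleted bone.

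Il1rn came nearest to a call. In WT trabecular bone it read 8.57, 8.87, 8.27, 9.03 and 8.38 with vehicle and 9.52, 8.92, 9.26, 9.50 and 9.49 with E2. It was higher with E2 on 5 of 5 BeadChips, although the E2 array of BeadChip 2 lay within the vehicle range. The log2 difference was 0.71 ± 0.18 (SE, 95% interval 0.34 to 1.08), with adjusted p = 0.145 by limma. Over the alternatives the adjusted p ranged from 0.0900 to 1. In WT cortical bone Il1rn read 8.98, 8.73, 8.25, 8.12 and 8.05 with vehicle and 8.41, 9.15, 9.06, 9.12 and 9.63 with E2, higher on 4 of 5 BeadChips. The difference was 0.65 ± 0.25 (SE, adjusted p = 1), and it was 0.95 without BeadChip 1 (adjusted p = 0.240) and 0.42 without BeadChip 5 (0.979). In AF-1-deleted mice the differences were 0.13 ± 0.18 and 0.14 ± 0.25 (SE). Tested directly, the E2 effect on Il1rn was larger in WT than in AF-1-deleted mice by 0.59 ± 0.25 in trabecular (adjusted p = 0.997) and 0.51 ± 0.35 (SE) in cortical bone (adjusted p = 1), neither of which passed. Each was positive on 3 of 5 BeadChips. Part of each lay in the vehicle groups. AF-1-deleted minus WT, Il1rn differed in trabecular bone by 0.31 ± 0.18 with vehicle and −0.27 ± 0.18 (SE) with E2. In cortical bone it differed by 0.12 ± 0.25 and −0.39 ± 0.25 (SE).

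RANKL in WT trabecular bone read 5.62, 6.80, 7.39, 6.85 and 6.14 with vehicle and 7.50, 7.54, 6.66, 7.64 and 7.12 with E2. It was higher with E2 on 4 of 5 BeadChips and lower on BeadChip 3, and the groups overlapped. The vehicle array of BeadChip 1, at 5.62, was not detected, and neither was the E2 array of that BeadChip. The difference was 0.73 ± 0.31 (SE, adjusted p = 0.705), and it was 0.45 without BeadChip 1 and 0.30 without background correction. In AF-1-deleted trabecular bone RANKL was detected on 3 of 5 arrays with E2 and 0 of 5 with vehicle, so the vehicle level has only a bound and no fold is given. The mean was not higher with E2, at 6.36 against 6.53 with vehicle, and the fitted difference was −0.17 ± 0.31 (SE). With a BeadChip left out, that difference lay between −0.32 and 0.21. In cortical bone the differences were 0.03 ± 0.32 in WT and −0.15 ± 0.32 (SE) in AF-1-deleted mice, with 95% intervals from −0.63 to 0.70 and from −0.81 to 0.52.

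**Figure D5:**
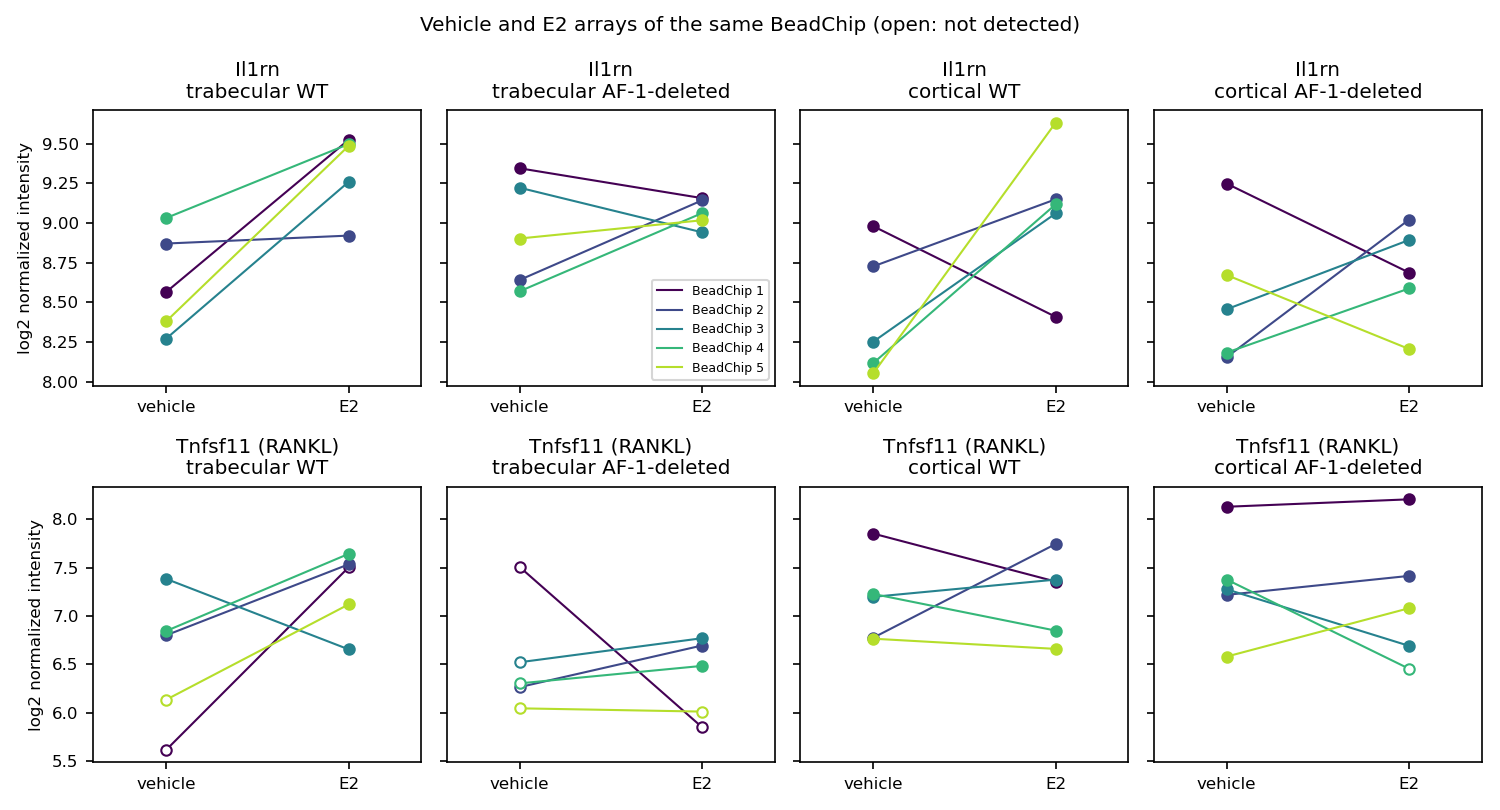
Log2 normalized intensity (vertical axis) of Il1rn (top) and RANKL (bottom) on the vehicle and E2 arrays of each BeadChip, joined by a line, in 4 combinations of bone and genotype. Open points were not detected. Il1rn is higher with E2 on 5 of 5 BeadChips in WT trabecular and 4 of 5 in WT cortical bone, and RANKL on 4 of 5 in WT trabecular bone.

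OPG did not pass with E2 either. Its differences were −0.13 ± 0.31 and −0.14 ± 0.31 in WT and AF-1-deleted trabecular bone and 0.41 ± 0.36 and −0.20 ± 0.36 (SE) in cortical bone, with adjusted p of 0.955 to 1. The widest 95% intervals, those of cortical bone, ran from −0.35 to 1.17 in WT and from −0.96 to 0.56 in AF-1-deleted mice. The RANKL minus OPG value was higher with E2 in WT trabecular bone by 0.87, on 4 of 5 BeadChips with an SD of 0.83 over them, and lower in WT cortical bone by −0.38. In AF-1-deleted mice it differed by −0.03 and 0.05. Tnf, by contrast, had a lower mean with E2 in WT trabecular bone, where it read 6.78, 7.19, 6.85, 6.51 and 6.68 with vehicle and 5.23, 6.26, 6.45, 6.58 and 6.51 with E2. It was detected on 2 and 1 of these arrays, and the difference was −0.59 ± 0.23 (SE, adjusted p = 0.669). Without the E2 array of BeadChip 1, which was not detected, it was −0.35, without BeadChip 1 −0.36 and without background correction −0.22. Tnf had a lower mean with E2 in AF-1-deleted trabecular bone too, by −0.44 ± 0.23 (SE). The WT minus AF-1-deleted difference of these E2 effects was −0.16 ± 0.32 (SE). In cortical bone the Tnf differences were −0.56 ± 0.40 in WT and −0.04 ± 0.40 (SE) in AF-1-deleted mice. Csf1 in WT cortical bone read 8.01, 8.39, 8.31, 8.26 and 7.65 with vehicle and 8.32, 8.50, 8.62, 8.99 and 8.32 with E2. It was higher on 5 of 5 BeadChips, and the difference was 0.43 ± 0.18 (SE, adjusted p = 1), or 0.28 without background correction. In AF-1-deleted cortical bone the Csf1 difference was 0.05 ± 0.18 (SE). In trabecular bone it was 0.26 ± 0.32 in WT and −0.64 ± 0.32 (SE) in AF-1-deleted mice, the latter lower on 4 of 5 BeadChips. With a BeadChip left out, the value of −0.64 lay between −0.88 and −0.31. RANK, Csf1r and Il1b had E2 differences between −0.28 and 0.43, with no unadjusted p under 0.05 in any of the 4 combinations. In the 4 lists around the members, 0 genes were called with E2 in either bone or genotype, and their medians lay between −0.14 and 0.13. Of the cell type lists, 1 gene was called with E2, Foxc1 of the marrow stromal list, higher in WT trabecular bone by 1.35 ± 0.28 (SE, adjusted p = 0.0483). Whole lists also leaned 1 way without calls. In WT trabecular bone the E2 mean was higher for 9 of 9 skeletal muscle genes (median 0.53) and 8 of 8 osteoblast genes (0.48), and for 0 of 4 cartilage genes (−0.95). In AF-1-deleted trabecular bone it was higher for 9 of 9 muscle genes (0.47), 6 of 8 osteoblast genes (0.14) and 4 of 4 cartilage genes (0.38). For osteoclast genes it was higher for 5 of 5 in WT trabecular (0.32) and 4 of 5 in AF-1-deleted trabecular bone (0.01). In cortical bone it was higher for 1 of 5 osteoclast genes in WT (−0.01) and 5 of 5 in AF-1-deleted mice (0.14). Their part in the E2 values of RANKL, Il1rn, Tnf and the other members was not tested.

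The deletion of AF-1 was compared directly under each treatment. By limma 0 members were called in trabecular bone with vehicle (0% of all genes) or with E2 (0.0345%), or in cortical bone with vehicle (0%) or with E2 (0.022%). At an unadjusted p under 0.05 there were 2 members, both in trabecular bone with E2, where 3.91% of all genes had one. RANKL there read 5.85, 6.70, 6.77, 6.49 and 6.01 in AF-1-deleted mice against the WT values given above. It was lower on 4 of 5 BeadChips, by −0.93 ± 0.31 (SE, adjusted p = 0.998), or −0.38 without background correction. Csf1 was lower on 5 of 5 BeadChips, by −0.82 ± 0.32 (SE, adjusted p = 1). The AF-1-deleted array of BeadChip 1, at 5.72, was not detected, and the difference was −0.49 without it, −0.54 without BeadChip 1 and −0.37 without background correction. OPG in cortical bone with E2 was lower on 5 of 5 BeadChips, by −0.73 ± 0.36 (SE, adjusted p = 1). It was −0.48 without the WT array of BeadChip 5 and −0.38 without the AF-1-deleted array of BeadChip 3. In that comparison AF-1-deleted means were higher for 9 of 9 muscle genes (median 0.62), 0 of 4 osteocyte genes (−0.52) and 2 of 8 osteoblast genes (−0.30). In trabecular bone with E2 they were higher for 8 of 9 muscle genes (0.14) and 3 of 4 cartilage genes (0.83). They were higher there for 0 of 5 osteoclast genes (−0.28) and 5 of 5 monocyte and macrophage genes (0.22). The part of these cell types was not tested. These comparisons share arrays with the E2 comparisons. In the 4 lists around the members, 0 genes were called between genotypes.

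The E2 effect differed between genotypes for 0 members by limma, in trabecular (0.0115% of all genes called) and in cortical bone (0%), with 1 (Il1rn) and 0 members at an unadjusted p under 0.05. For RANKL in trabecular bone the WT minus AF-1-deleted difference of E2 effects was 0.90 ± 0.44 (SE), and for Csf1 it was 0.89 ± 0.46 (SE), with adjusted p = 0.997 for both. The value of RANKL rests on a vehicle group of AF-1-deleted mice with 0 of 5 arrays detected. On BeadChip 1, where RANKL was detected on 0 of 4 trabecular arrays, it was 3.54, and without that BeadChip it was 0.24, without BeadChip 3 1.37 and without background correction 0.37. The value of Csf1 was 0.56 without the undetected AF-1-deleted array of BeadChip 1 and 0.40 without background correction. Between the bones, 0 members differed in their E2 effect by limma in WT (0.0106%) and in AF-1-deleted mice (0%), with 0 members at an unadjusted p under 0.05 in both. For RANKL in WT that difference was 0.70 ± 0.46 and for OPG −0.54 ± 0.49 (SE), trabecular minus cortical. With 5 arrays a group, the 95% intervals for the E2 effect on RANKL span more than 1 unit of log2 in every combination.

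Across the 40 arrays the genes whose log2 values ran most like those of a member were named by Pearson's r, as a description, since the points share BeadChips and differ by bone. For OPG they were Mepe (0.92), a matrix protein of osteocytes, Irx5 (0.92), a homeobox factor, and Ryk (0.91), a Wnt receptor. Within the 20 cortical arrays these were 0.81, 0.77 and 0.78, and within the 20 trabecular arrays 0.45, 0.35 and 0.31. For RANKL they were Slc35b2 (0.75), Eif3j1 (0.69) and P4ha1 (0.67), and the likeness with Slc35b2 was 0.77 within trabecular and 0.54 within cortical bone. For Csf1, Lpar1 (0.77) and Gucy1a1 (0.75) were among them, and within cortical bone these lay at 0.26 and 0.34. For Csf1r they were Cxcr2 (0.66), a chemokine receptor of neutrophils, Zc3h18 (0.65) and Mmp9 (0.64), the gelatinase of osteoclasts and neutrophils.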

How the data were processed

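RNA of mouse bone was hybridised to 40 arrays on 5 Illumina BeadChips, 8 arrays each. Per the file headers, the main deposited table gives each probe's bead intensity, not normalized, and a detection p-value. GenomeStudio is named in the submitters' processing notes, with no version. The authors' second table gives normalized intensity, with the same ranks within each array.

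From the deposited intensity, limma's nec (with the detection p-values, offset 16), quantile normalization and log2 gave all levels printed here, and log2 was not a unit of the authors' main table. Probes with detection p under 0.01 on 5 or more of the fitted arrays entered, the brightest for each gene. Groups were compared with limma's lmFit and eBayes (R 4.3.3, limma 3.58.1), and Benjamini-Hochberg adjustment covered every gene tested. Called means adjusted p under 0.05. Fits within a bone used its 20 arrays, and fits between bones all 40. Where all arrays of 1 group were below detection, the fold printed is a bound against the detection limit. It is taken between group means and carries no sampling error. The number of arrays limits the precision. The fit was tested on simulated data in which arrays vary independently. That test therefore does not show how calls behave when arrays of a BeadChip are correlated.

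Per the labels, the replicate number is the BeadChip, which holds 1 array of each group and so pairs arrays. Residuals of arrays with the same number correlated, on average over pairs, by 0.04 to 0.32 in trabecular and −0.04 to 0.37 in cortical bone. The BeadChip as a block was an alternative, as were other background, normalization, filter, probe and sample choices and leaving out arrays. The genes named were the members, Esr1, up to 4 called genes of each list and comparison by size of difference, and the 3 genes most like RANKL, OPG, Csf1 and Csf1r. Of these last, 1 gene is not reported here. Members and lists were chosen with earlier results of these data known. The labels name the femur for the shafts, their protocol also the tibia.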

Additional observations from a re-analysis of the deposited data

Results flagged for a closer look

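In 64 checks of a tested member in a group of 5 arrays, 4 had 1 array far from the others by Dixon's criterion (gap over range above 0.71), and chance flags about 1 in 20 such groups. OPG in vehicle-treated AF-1-deleted trabecular bone read 7.49 on BeadChip 2, against 8.46 to 8.66 on the other arrays. RANK in the same group read 9.31 on BeadChip 1, against 8.04 to 8.24. Csf1 in vehicle-treated AF-1-deleted cortical bone read 7.76 on BeadChip 5, against 8.31 to 8.51. Tnf in E2-treated WT trabecular bone read 5.23 on BeadChip 1, where it was not detected, against 6.26 to 6.58.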

How the results depend on the processing

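The 5 called differences of members (OPG in 4 comparisons, Csf1 in 1) kept their call in 119 of 119 alternatives. Of the alternatives for the 123 differences not called, 31 of 3275 brought a call and 219 had the other sign. In the 12 comparisons of E2, genotype and their interactions, the count of called members was 0 under every alternative run. Between the bones it moved. With the BeadChip as a replicate block it was 2 for WT with vehicle (1 without it), 3 for WT with E2 (1), 2 for AF-1-deleted with vehicle (1) and 4 for AF-1-deleted with E2 (2), and the block changed no other call of a member. For WT with E2 it was 3 without background correction, 3 with the authors' values and 3 with only the groups compared. For AF-1-deleted mice with vehicle it was 5 with only the groups compared and 2 with probes detected on all arrays, and with E2 it was 1 with the latter, where Csf1 was no longer tested. Leaving out a BeadChip or an array gave 1 to 3, 1 to 2, 1 to 3 and 2 to 3. Over all genes, the 18 called with E2 in WT trabecular bone ranged from 4 to 29 and the 13 in WT cortical bone from 2 to 31. The calls between the bones ranged from 742 to 2647 (1950 for WT with vehicle), 660 to 2228 (1832 for WT with E2), 804 to 2716 (2103 for AF-1-deleted with vehicle) and 607 to 2542 (2168 for AF-1-deleted with E2). The RANKL minus OPG difference between the bones, 1.34, ranged from 1.15 to 1.54. The cause of these shifts was not tested. Il6, Fasl and, on 11 arrays, RANKL lay at or below the detection limit. Tnf was detected on only 17 of 40 arrays, and Csf1 on 38. At a detection p under 0.05 Fasl was detected on 19 arrays and Il6 on 0.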
